A study of Homo sapiens with 16 samples.

Results

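The 8 genes described here make parts of the antibody secretion apparatus of plasma cells: JCHAIN, MZB1, TENT5C, ELL2, SEC11C, SSR4, FKBP11 and CREB3L2. They were chosen by symbol, and all 8 of the 28277 symbols in each table were found and passed the filter on low values in both lines. The study measured messenger RNA in INA6 and JJN3, established human multiple myeloma lines labelled as plasma cells and untreated. In each line, 3 libraries carried CRISPR interference against KANSL2 and 3 carried non-targeting guides, and all 12 cell samples therefore share the CRISPR interference system, in which an inactive Cas9 fused to a KRAB-type repressor domain silences the gene that a guide RNA points to. KANSL2 belongs to the NSL complex, a histone acetyltransferase complex. INA6 is known to need interleukin 6 for growth and JJN3 is not. Another 4 chromatin accessibility libraries of JJN3, 2 control and 2 knockdown, were not analysed here. The labels give neither the number of guides nor whether the libraries came from separate cultures or clones, so a p-value here reflects the spread of these particular libraries and that spread could be technical. The comparison asks whether repression of KANSL2 changed these genes in each line, and whether the lines differed.

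A plasma cell turns most of its protein synthesis to immunoglobulin. Nascent chains enter the endoplasmic reticulum (ER) through the Sec61 channel, lose their signal peptide to the signal peptidase, are folded and glycosylated, and leave in coated vesicles. IgM and IgA are joined into polymers by the J chain. Upstream of this, the mRNA of the secreted heavy chain depends on the choice of an early poly(A) site, and membrane-bound transcription factors raise the capacity of the ER.

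The sequence just upstream of the annotated start is shown for the 4 genes that fell in INA6 and for SEC11C, which rose in both lines. SEC11C is 1 of the 3 genes that rose in INA6, and its call there was lost under 4 of 12 alternatives. SSR4, which also rose in both lines, and FKBP11 are not shown. Each run is the 250 bases before the start in the RefSeq annotation of GRCh38.p14, read 5′ to 3′ on the strand of the gene. Capitals mark a match to CACGTG, the E-box of basic helix-loop-helix factors, or to TGACGTCA, the cAMP response element (CRE) known for CREB-type factors.
JCHAIN, chr4:70666509-70666758, minus strand: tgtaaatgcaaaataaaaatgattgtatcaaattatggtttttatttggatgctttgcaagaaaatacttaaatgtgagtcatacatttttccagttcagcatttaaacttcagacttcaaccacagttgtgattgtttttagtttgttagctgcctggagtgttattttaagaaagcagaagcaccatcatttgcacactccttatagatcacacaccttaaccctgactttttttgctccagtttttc
MZB1, chr5:139389914-139390163, minus strand: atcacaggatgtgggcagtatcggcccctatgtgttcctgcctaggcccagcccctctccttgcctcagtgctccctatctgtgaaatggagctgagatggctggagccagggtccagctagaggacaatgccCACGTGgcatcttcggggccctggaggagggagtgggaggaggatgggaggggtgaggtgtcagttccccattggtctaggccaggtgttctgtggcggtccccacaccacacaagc
TENT5C, chr1:117605798-117606047, plus strand: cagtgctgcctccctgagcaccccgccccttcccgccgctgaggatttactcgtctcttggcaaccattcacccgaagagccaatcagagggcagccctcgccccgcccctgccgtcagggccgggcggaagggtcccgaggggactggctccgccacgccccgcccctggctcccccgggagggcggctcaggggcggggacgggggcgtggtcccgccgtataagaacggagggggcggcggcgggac
CREB3L2, chr7:138002087-138002336, minus strand: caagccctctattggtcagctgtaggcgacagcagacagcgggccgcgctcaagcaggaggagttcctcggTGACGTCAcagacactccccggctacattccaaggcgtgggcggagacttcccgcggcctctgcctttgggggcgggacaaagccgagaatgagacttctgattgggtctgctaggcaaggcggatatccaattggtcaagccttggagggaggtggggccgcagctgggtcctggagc
SEC11C, chr18:59139634-59139883, plus strand: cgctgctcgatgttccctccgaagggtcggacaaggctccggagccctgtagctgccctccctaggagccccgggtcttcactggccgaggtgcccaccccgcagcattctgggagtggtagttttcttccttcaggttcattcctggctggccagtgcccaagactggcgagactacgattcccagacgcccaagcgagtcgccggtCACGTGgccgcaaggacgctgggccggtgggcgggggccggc
The upstream sequence of JCHAIN has a GC content of 32.8%, below the median of 58.0% over 35116 promoters of the RefSeq table. The other 4 sequences shown lie between 61.2% in MZB1 and 74.0% in TENT5C. CREB3L2 has another annotated start, not shown, whose upstream sequence has a GC content of 41.2% and no match to the CRE. Of the 8 genes, 7 matched the promoter table. ELL2 did not, and its upstream sequence was not searched.

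The motifs were searched on both strands of the same 250 bases in all 35116 promoters. The CRE of CREB3L2 lies 179 to 172 bases before the start shown, and 1.65% of all promoters hold such a match. The E-boxes of MZB1, 117 to 112 bases before the start, and of SEC11C, 42 to 37 bases before it, are of a kind that 6.34% of promoters hold. CCAAT, which is also the first part of the ER stress element, occurs in 4 of the 7 genes searched (TENT5C, MZB1, CREB3L2 and SSR4) and in 32.0% of promoters. TGACGTG, the core of the unfolded protein response element, occurs in SSR4 alone of the 7 and in 1.68% of promoters. None of the 7 holds the ER stress elements known as ERSE and ERSE-II, the octamer ATGCAAAT or the core of the interferon-stimulated response element, whose shares of all promoters are 0.074%, 0.0513%, 1.63% and 3.02%. The 4 genes that fell in INA6 share none of these motifs as a group, JCHAIN having no match to any of them.

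All expression values below are regularised log (rlog) values, a log2 scale made by the authors from counts, in which a difference of −1 leaves 50% of the level. Each line was normalised on its own, so levels are compared only within a line. Differences are knockdown minus control, called at an adjusted p below 0.05 in a limma fit over all tested genes of the line. Depth per library is unknown. The median rlog value of a library ranged from 8.18 to 8.23 in INA6 and from 8.05 to 8.08 in JJN3, slightly lower in the knockdown libraries of each line. No single library stood apart by its median, which does not speak for single genes.

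KANSL2 itself fell in both lines, which checks the labels. Its difference was −0.39 (SE 0.0625, adjusted p = 3.06e-05) in INA6, where 76.4% of the control level was left, and −1.21 (SE 0.0559, adjusted p = 1.48e-16) in JJN3, where 43.1% was left. The depth of knockdown therefore differed between the lines together with everything compared between them below, and its part in those differences was not tested.

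The 8 genes moved differently in the lines. In INA6, JCHAIN, MZB1, TENT5C and CREB3L2 fell, SEC11C, SSR4 and FKBP11 rose and ELL2 was not called, with a median difference of −0.16. In JJN3, TENT5C, ELL2, SEC11C, SSR4 and CREB3L2 rose, none fell, and JCHAIN, MZB1 and FKBP11 were not called, with a median of 0.15. Over all genes tested the median was 0.00 in both lines. Changes were common across the genome, so the counts are read against it: in INA6, 24.7% of 12511 genes rose and 24% fell, beside 3 and 4 of the 8, and in JJN3, 25.5% of 12282 genes rose and 25.5% fell, beside 5 and 0 of the 8. With the libraries centred on their medians, 61.9% of all called genes in INA6 were rises, against 50.7% as deposited, a shift of the median gene by 0.04. The 3 knockdown values did not overlap the 3 control values for 7 of the 8 genes in INA6, where this held for 55.2% of all tested genes, and for 5 of the 8 in JJN3, where it held for 56.1%.

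**Figure D1:**
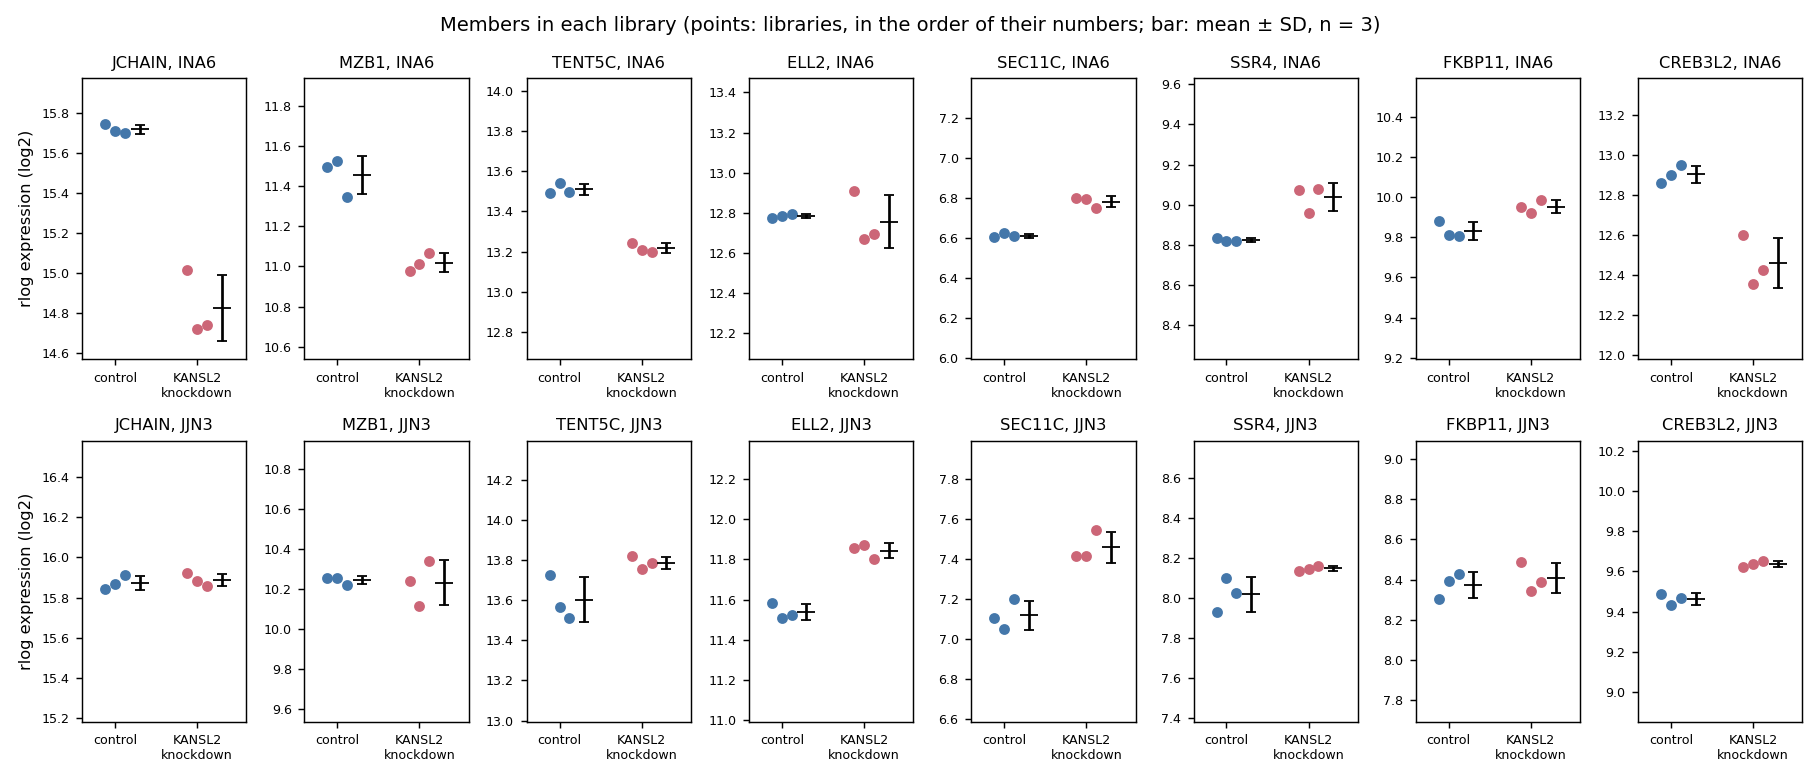
Each panel shows the rlog value (log2 scale, each panel spanning the same height) of 1 gene in the 3 control and 3 KANSL2 knockdown libraries of 1 line, with INA6 above and JJN3 below; bars give the mean and SD. In INA6 the knockdown libraries of JCHAIN lie between 14.72 and 15.01, all below the controls, while in JJN3 the groups overlap.

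JCHAIN encodes the joining chain that links IgM and IgA units into polymers and lies on chromosome 4 from 70655541 to 70666508. In INA6 its values were 15.75, 15.71 and 15.70 in the controls and 15.01, 14.72 and 14.74 in the knockdown libraries. The controls were tight and every knockdown library lay well below them, the first of the 3 by the least. The control mean of 15.72 ± 0.0239 (SD, n = 3) was followed by 14.83 ± 0.163 (SD, n = 3) under knockdown, which is a change of −0.89 (SE 0.0546, 95% interval −1.01 to −0.78, adjusted p = 6.04e-11) that leaves 53.9% of the control level. Ordered by size of fall among 12511 tested genes, it had rank 35. In bulk samples like these, fewer cells that express a gene and less RNA per cell cannot be told apart.

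In JJN3 the values of JCHAIN were 15.84, 15.87 and 15.91 in the controls and 15.92, 15.88 and 15.86 in the knockdown libraries. The groups overlapped and the means were nearly equal, with a difference of 0.01 (SE 0.038, 95% interval −0.06 to 0.09, adjusted p = 0.768). A fall of the size seen in INA6 lies outside this interval. With quantile normalisation the JJN3 difference became 0.07 and was called (adjusted p = 0.0174).

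MZB1 is an ER co-chaperone that works with the chaperone GRP94 in the assembly and secretion of IgM and IgA. The gene spans 139387467 to 139389913 on chromosome 5. In INA6 it measured 11.50, 11.53 and 11.35 in the controls and 10.98, 11.01 and 11.07 under knockdown. All 3 knockdown libraries were below all controls, by a mean of −0.44 (SE 0.0485, 95% interval −0.54 to −0.34, adjusted p = 3.15e-07), leaving 73.9%. In JJN3 it measured 10.26, 10.26 and 10.22 in the controls and 10.24, 10.12 and 10.34 under knockdown. These groups overlapped, knockdown libraries lying on both sides of the controls, and the difference was −0.01 (SE 0.0471, 95% interval −0.11 to 0.08, adjusted p = 0.84). The 2 genes most tied to polymeric immunoglobulin therefore both fell in INA6, and neither was called in JJN3.

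TENT5C is a cytoplasmic poly(A) polymerase that lengthens the tails of mRNAs made at the ER, immunoglobulin mRNA among them, and it is often mutated in myeloma. It lies on chromosome 1 from 117606048 to 117628389. Its INA6 values were 13.49, 13.54 and 13.50 in the controls and 13.24, 13.21 and 13.20 under knockdown. The groups were tight and apart, and the difference of −0.29 (SE 0.0383, 95% interval −0.37 to −0.21, adjusted p = 2.56e-06) leaves 81.6%. In JJN3 the controls were 13.73, 13.57 and 13.51 and the knockdown libraries 13.82, 13.76 and 13.78. Here every knockdown library was above the controls, the first control coming close to them, and the difference was 0.18 (SE 0.0437, 95% interval 0.10 to 0.27, adjusted p = 0.000788). TENT5C thus changed in opposite directions in the 2 lines.

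ELL2 is an elongation factor of the super elongation complex that is known to favour the secretory poly(A) site of the heavy chain gene in plasma cells. It lies on chromosome 5 from 95885098 to 95961851. In INA6 it was at 12.77, 12.79 and 12.79 in the controls and at 12.91, 12.67 and 12.69 under knockdown. The first knockdown library lay above the controls and the others below, and the difference was −0.03 (SE 0.05, 95% interval −0.13 to 0.08, adjusted p = 0.659). Without that library the difference was −0.10 and passed the test (adjusted p = 0.0317). In JJN3 the controls were 11.58, 11.51 and 11.52 and the knockdown libraries 11.86, 11.87 and 11.80. These did not overlap, and ELL2 rose by 0.31 (SE 0.0395, 95% interval 0.23 to 0.39, adjusted p = 1.74e-07), to 123.6% of the control level. ELL2 overlaps CAST by 423 bases in the annotation. CAST fell in both lines (−0.26, adjusted p = 0.00092 in INA6, and −0.20, adjusted p = 0.00326 in JJN3).

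SEC11C is a catalytic subunit of the signal peptidase, which removes the signal peptide of secreted proteins, and has a paralog, SEC11A. It lies on chromosome 18 from 59139884 to 59158832. In INA6 it measured 6.60, 6.62 and 6.61 in the controls and 6.80, 6.80 and 6.75 under knockdown. The groups did not overlap, and the rise was small, 0.17 (SE 0.0605, 95% interval 0.04 to 0.30, adjusted p = 0.0245). That call was lost without control replicate 1 (adjusted p = 0.0624), control replicate 3 (0.0602), knockdown replicate 1 (0.0551) or knockdown replicate 2 (0.0701), the differences staying between 0.16 and 0.17. In JJN3 the controls were 7.10, 7.05 and 7.20 and the knockdown libraries 7.41, 7.41 and 7.55. Every knockdown library was higher, by a mean of 0.34 (SE 0.0585, 95% interval 0.22 to 0.46, adjusted p = 1.65e-05), or 126.5% of control, the largest difference among the 8 genes in that line.

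SSR4 encodes a subunit of the translocon-associated protein complex (TRAP), which assists the entry of some chains at the Sec61 channel. It lies on chromosome X from 153794159 to 153798499. In INA6 it was at 8.83, 8.82 and 8.82 in the controls and at 9.07, 8.96 and 9.08 under knockdown. All knockdown libraries were higher, with a difference of 0.21 (SE 0.0526, 95% interval 0.10 to 0.32, adjusted p = 0.00208). In JJN3 the controls were 7.93, 8.10 and 8.03 and the knockdown libraries 8.14, 8.15 and 8.16. The groups came close, and the rise of 0.13 (SE 0.0537, 95% interval 0.02 to 0.24, adjusted p = 0.0443) was lost without any 1 of 5 libraries: control replicate 1 (0.08, adjusted p = 0.257), control replicate 3 (0.0741), knockdown replicate 1 (0.0523), knockdown replicate 2 (0.0954) or knockdown replicate 3 (0.086). SSR4 overlaps IDH3G on the opposite strand by 217 bases. IDH3G had a difference of 0.11 in INA6 (adjusted p = 0.157) and 0.20 in JJN3 (adjusted p = 0.00951). Whether reads were assigned by strand is not given, so reads in that overlap are uncertain.

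FKBP11 is a prolyl isomerase of the ER that is abundant in secretory tissues. It lies on chromosome 12 from 48921963 to 48939034. In INA6 its values were 9.88, 9.81 and 9.80 in the controls and 9.95, 9.92 and 9.98 under knockdown. The groups lay close without overlapping, and the difference was 0.12 (SE 0.0468, 95% interval 0.02 to 0.22, adjusted p = 0.0389). Quantile normalisation ended the call (0.07, adjusted p = 0.23), as did leaving out control replicate 2 (0.11, 0.128), control replicate 3 (0.11, 0.131), knockdown replicate 2 (0.14, 0.0579) or knockdown replicate 3 (0.10, 0.0876). In JJN3 the controls were 8.30, 8.39 and 8.43 and the knockdown libraries 8.49, 8.34 and 8.39. These overlapped, with a difference of 0.03 (SE 0.053, 95% interval −0.08 to 0.14, adjusted p = 0.643). FKBP11 overlaps ARF3, a neighbour on the same strand, by 3312 bases. ARF3 rose by 0.19 in INA6 and 0.17 in JJN3, the second of which quantile normalisation ended (adjusted p = 0.1), and reads in the overlap are uncertain.

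CREB3L2 is a transcription factor held in the ER membrane and released by proteolysis in the Golgi, and is known to activate genes of the secretory route. It lies on chromosome 7 from 137874979 to 138002086. In INA6 it was at 12.86, 12.90 and 12.95 in the controls and at 12.60, 12.36 and 12.43 under knockdown. All knockdown libraries were lower, the first again by the least, and the difference of −0.44 (SE 0.0502, 95% interval −0.55 to −0.34, adjusted p = 4.18e-07) leaves 73.6%. In JJN3 the controls were 9.49, 9.43 and 9.47 and the knockdown libraries 9.62, 9.64 and 9.65. Both groups were tight and CREB3L2 rose by 0.17 (SE 0.0436, 95% interval 0.08 to 0.26, adjusted p = 0.00142). Like TENT5C, it changed in opposite directions in the 2 lines.

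**Figure D2:**
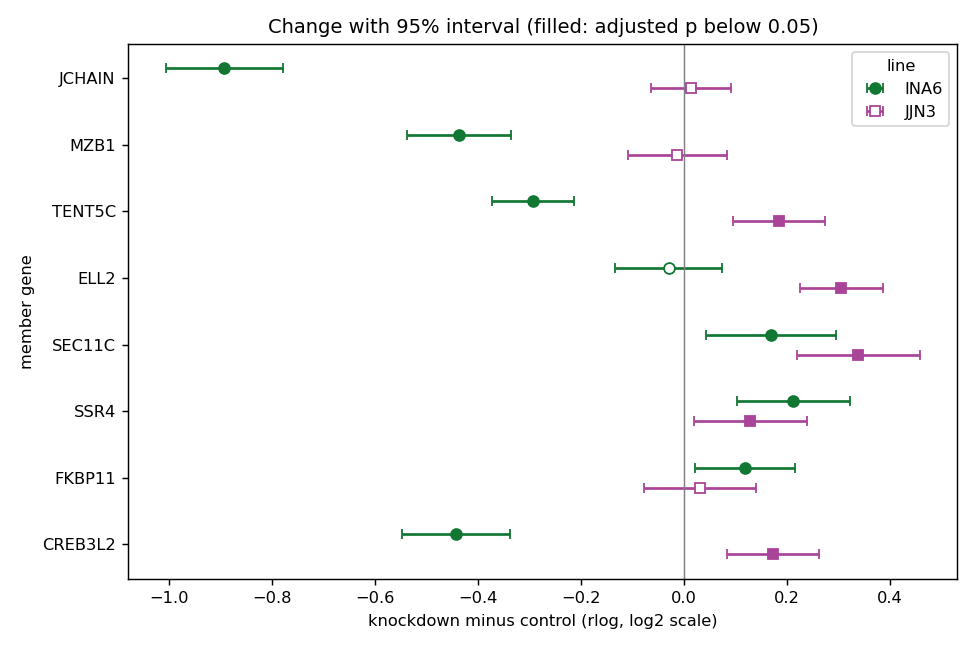
The horizontal axis gives the difference between KANSL2 knockdown and control (log2 scale) with its 95% interval for each of the 8 genes, circles for INA6 and squares for JJN3, filled where the adjusted p is below 0.05. JCHAIN in INA6, at −0.89, lies farthest from 0.

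The difference between the lines was tested directly for each gene, as the JJN3 difference minus the INA6 difference. JCHAIN (0.91, SE 0.0665, adjusted p = 4.82e-16), CREB3L2 (0.62, SE 0.0665, adjusted p = 1.33e-10), TENT5C (0.48, SE 0.0581, adjusted p = 3.69e-09), MZB1 (0.42, SE 0.0676, adjusted p = 1.93e-06) and ELL2 (0.33, SE 0.0637, adjusted p = 4.43e-05) differed, all 5 with the higher value in JJN3. The share of genes that differed was 30% over all 11137 genes tested in both lines, beside 5 of the 8. SEC11C (0.17, adjusted p = 0.123), SSR4 (−0.08, adjusted p = 0.427) and FKBP11 (−0.09, adjusted p = 0.362) did not pass the test.

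The close partners of SEC11C and SSR4 were counted beside the shares over all genes, 24.7% higher and 24% lower in INA6 and 25.5% each in JJN3. Of the 4 other signal peptidase genes, none was called in INA6 and 1 rose in JJN3, SPCS3 (0.15, adjusted p = 0.00153), a call that quantile normalisation ended (adjusted p = 0.532). The paralog SEC11A was at 0.06 (adjusted p = 0.284) and −0.04 (adjusted p = 0.542), and the accessory subunits SPCS1 and SPCS2 were not called in either line. Of the 3 other TRAP subunits, SSR1 rose in JJN3 (0.18, adjusted p = 0.000322), ended likewise (adjusted p = 0.153), SSR3 fell in INA6 (−0.11, adjusted p = 0.0408), a call lost in 9 of 12 alternatives, and SSR2 was not called in either line (−0.08 and −0.07). In the test between lines, which SEC11C and SSR4 did not pass, SPCS3 (0.22, adjusted p = 0.003), SSR1 (0.19, adjusted p = 0.0109) and SSR3 (0.18, adjusted p = 0.0115) were called, each higher in JJN3. That is 1 of 4 signal peptidase genes and 2 of 3 TRAP genes, beside 30% of all genes tested in both lines.

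More of the channel and targeting genes around them were called higher in JJN3 than in INA6. Counts here and for the later lists are read beside the shares over all genes, 24.7% higher and 24% lower in INA6 and 25.5% each in JJN3. Of 16 genes of the Sec61 translocon, the signal recognition particle and its receptor, 5 rose and 2 fell in INA6 (median 0.03), and 9 rose and 0 fell in JJN3 (median 0.14). The INA6 counts moved with the scaling, to 6 rises and 0 falls with median centring and to 1 and 3 with quantile normalisation, while JJN3 had 12 and 0, and 8 and 1. In INA6 they were also 4 and 0 without control replicate 1 or knockdown replicate 3, 2 and 2 without control replicate 3, 4 and 4 without knockdown replicate 1, and 3 and 1 without knockdown replicate 2. In JJN3, TRAM2, a translocating chain helper, rose by 0.42 (adjusted p = 1.68e-10), SEC61A1, the channel itself, by 0.42 (adjusted p = 2.56e-10) and SRPRB, a subunit of the receptor for the targeting particle, by 0.32 (adjusted p = 2.13e-07). In INA6, TRAM2 (0.18) and SRPRB (0.17) also rose, calls that quantile normalisation ended (adjusted p = 0.0821 and 0.0699). SEC63, which couples the channel to the chaperone BiP, fell in INA6 (−0.15, adjusted p = 0.0137), a call that median centring ended, as did leaving out control replicate 1 or knockdown replicate 3, at adjusted p up to 0.0729. Of these 16 genes 6 differed between lines, all with the higher value in JJN3, beside 30% of all genes tested in both lines. Of 10 tested oligosaccharyltransferase genes, which attach N-glycans to the entering chain, 2 rose and 1 fell in INA6 (median 0.01) and 5 rose and 1 fell in JJN3 (median 0.11). With quantile normalisation 1 rose and 2 fell in JJN3 and 1 rose and 3 fell in INA6. Without single libraries the INA6 rises ranged from 0 (without control replicate 2 or knockdown replicate 2) to 4 (without knockdown replicate 1), being 1 without each of the others, and the INA6 fall was lost without knockdown replicate 2. The JJN3 fall, DDOST (−0.12, adjusted p = 0.0289), was lost under 7 of 12 alternatives. These include leaving out control replicate 2 or 3 or knockdown replicate 2 or 3. Without knockdown replicate 3, KRTCAP2 was called lower instead. STT3A, a catalytic subunit, rose by 0.19 in JJN3 (adjusted p = 0.000961).

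None of the tested relatives of FKBP11 was called higher in either line on the deposited values. The 4 tested were FKBP7, FKBP9 and FKBP14 of the ER and FKBP8, known mainly from the outer mitochondrial membrane. Of these, 1 fell in INA6 and 3 fell in JJN3, with medians of −0.12 and −0.19 and no rise in either line. In INA6, FKBP14 was called higher with median centring, with a mean of at least 5 and without knockdown replicate 3, and 2 relatives fell with quantile normalisation or without control replicate 3, knockdown replicate 1 or knockdown replicate 3. FKBP9 fell in both lines (−0.63, adjusted p = 5.09e-08 in INA6, and −0.22, adjusted p = 0.0018 in JJN3), and FKBP8 fell in JJN3 (−0.34, adjusted p = 4.66e-07). FKBP7, the remaining fall in JJN3 (−0.15, adjusted p = 0.032), was lost under 6 of 12 alternatives. Among folding chaperones the lines differed. In INA6, 6 of 23 tested chaperone genes rose and 8 fell (median −0.07), and in JJN3, 14 of 22 rose and 2 fell (median 0.18). Quantile normalisation gave 3 rises and 11 falls in INA6 and 12 and 3 in JJN3. The INA6 rises numbered 2 without control replicate 2 and 3 without knockdown replicate 2, and the JJN3 falls numbered 1 without any single library other than knockdown replicate 1. TXNDC11, an ER thioredoxin-domain protein, went from −0.47 in INA6 (adjusted p = 3.89e-08) to 0.41 in JJN3 (adjusted p = 5.27e-09), whereas TXNDC5, a disulfide isomerase, fell in both (−0.68, adjusted p = 6.3e-05, and −0.47, adjusted p = 1.32e-05). CALR, a lectin chaperone, rose in both (0.22 and 0.42). Of 22 chaperone genes tested in both lines, 15 differed, 14 with the higher value in JJN3, beside 30% of all genes tested in both.

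**Figure D3:**
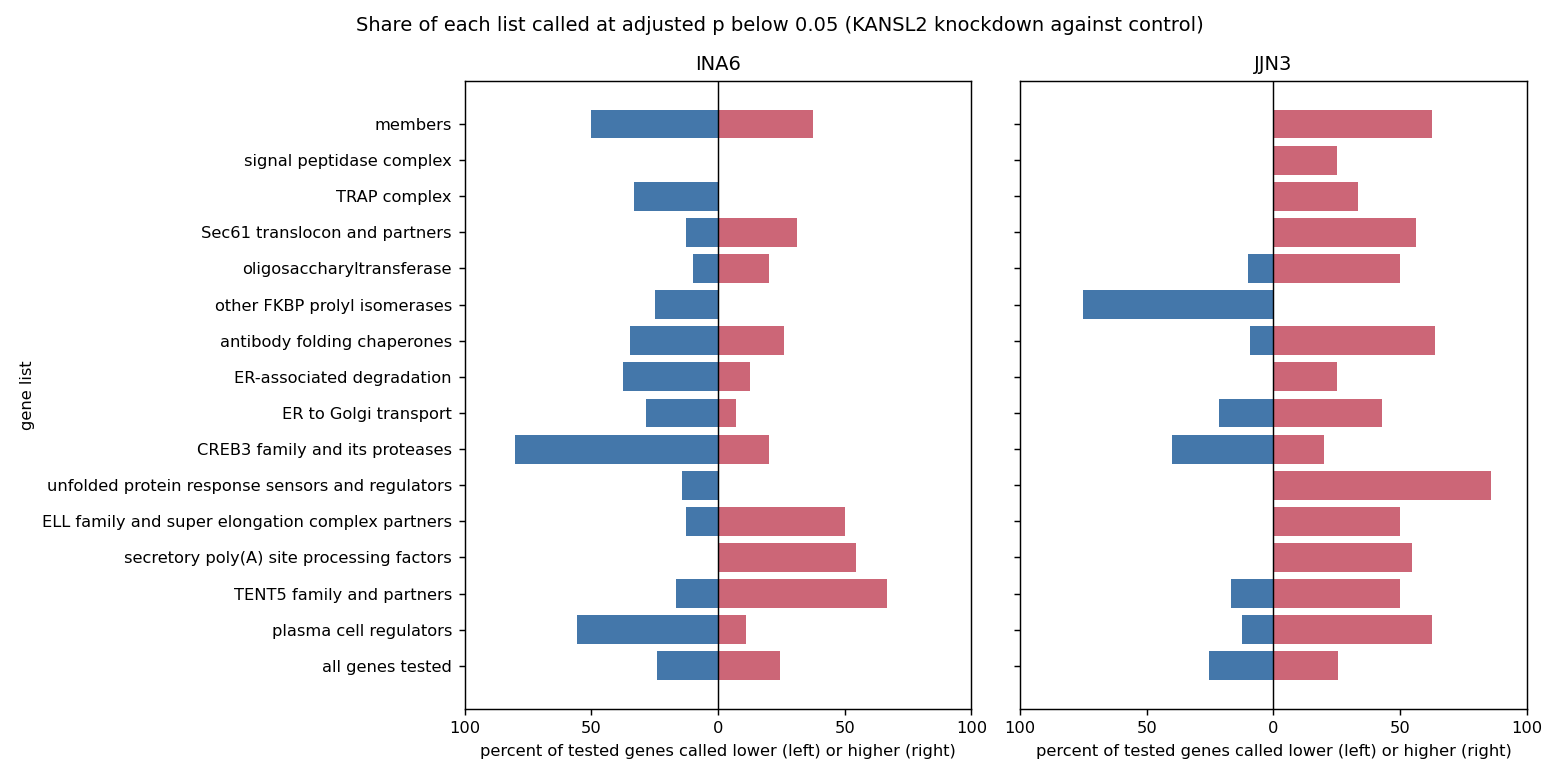
Bars give the percent of tested genes of each list called lower (to the left) or higher (to the right) in KANSL2 knockdown at an adjusted p below 0.05, for INA6 and JJN3, with all genes tested at the bottom. In JJN3, 14 of 22 folding chaperone genes and 9 of 16 translocon genes were higher, and in INA6, 5 of 9 plasma cell regulators were lower.

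The later steps of the route are degradation and transport, and their counts are read beside the shares over all genes, 24.7% higher and 24% lower in INA6 and 25.5% each in JJN3. Of 8 tested genes of ER-associated degradation, which removes misfolded chains, 1 rose and 3 fell in INA6 (median −0.07): the mannosidase-like EDEM1 (−0.50, adjusted p = 3.15e-08) and EDEM3 (−0.51, adjusted p = 3.62e-08), and HERPUD1 (−0.41, adjusted p = 2.88e-07). The single INA6 rise was lost without any of the controls or without knockdown replicate 2, and without knockdown replicate 3 the counts were 2 and 4. In JJN3, 2 rose and 0 fell (median 0.06), HERPUD1 among the rises (0.26, adjusted p = 6.65e-06), but with quantile normalisation 1 rose and 3 fell there, and without knockdown replicate 3 there were 4 rises. Of 28 genes of ER to Golgi transport, 2 rose and 8 fell in INA6 (3 and 5 with median centring, 1 and 13 with quantile normalisation, 1 and 7 without control replicate 1, 2 and 4 without control replicate 2 or 3, and 2 and 5 without knockdown replicate 2 or 3) and 12 rose and 6 fell in JJN3. BET1, a vesicle fusion protein, fell in both (−0.33 and −0.36), and COPE, a coat subunit, rose in both (0.32 and 0.24). SEC24D, a cargo adaptor of the outward coat, fell in INA6 (−0.25, adjusted p = 0.000398).

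The tested relatives CREB3L4 and CREB3 fell in INA6, as CREB3L2 did, but CREB3L4 also fell in JJN3, where CREB3L2 rose. Counts are again read beside the shares over all genes, 24.7% higher and 24% lower in INA6 and 25.5% each in JJN3. The 5 tested genes of this list were CREB3, CREB3L4, ATF6 and the proteases that release such factors, MBTPS1 and MBTPS2. Of these, 4 fell and 1 rose in INA6 (median −0.24, and 3 and 0 without control replicate 1), and 2 fell and 1 rose in JJN3 (median −0.08). CREB3L4 fell in both lines (−0.39, adjusted p = 2.14e-05, and −0.16, adjusted p = 0.00192), as did ATF6, a sensor of ER stress cleaved by the same proteases (−0.24 in each, adjusted p = 0.000219 and 3.69e-05). MBTPS2, the site-2 protease, fell in INA6 (−0.26, adjusted p = 0.00132). MBTPS1, the other protease, rose in both lines (0.15 in each, adjusted p = 0.0138 and 0.00699). Its call was lost without control replicate 1 in INA6 and with quantile normalisation in JJN3. CREB3 fell in INA6 (−0.18, adjusted p = 0.0252), a call lost under 6 of 12 alternatives, and CREB3L1 did not pass the filter on low values in either line. Of 7 unfolded protein response genes, 6 rose in JJN3 (median 0.19), led by PPP1R15A (0.47, adjusted p = 1.55e-08), which restores translation after stress, and DDIT3 (0.32, adjusted p = 2.62e-05). In JJN3, 5 rose with quantile normalisation and without control replicate 2, knockdown replicate 1 or knockdown replicate 2. In INA6 0 of 7 rose and 1 fell, XBP1 (−0.12, adjusted p = 0.0201). The XBP1 call did not survive median centring, under which 3 of the 7 rose, nor the loss of control replicate 1 or knockdown replicate 2, and 1 gene of the list rose without knockdown replicate 2. In the test between lines only 2 of the 7 differed, both with the higher value in JJN3, beside 30% of all genes tested in both.

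In the lists drawn up around ELL2 and TENT5C, rises outnumbered falls in both lines. Over all genes the shares were 24.7% higher and 24% lower in INA6 and 25.5% each in JJN3. Of 8 tested genes of the ELL family and the super elongation complex, 4 rose and 1 fell in INA6 (median 0.15) and 4 rose and 0 fell in JJN3 (median 0.11; 4 and 2 with quantile normalisation). The paralog ELL rose in both, by 0.33 (adjusted p = 2.87e-06) and 0.26 (adjusted p = 6.04e-06), and so did CDK9 (0.21 and 0.24), the kinase of the complex. Of 11 poly(A) site processing factors, 6 rose and 0 fell in each line (medians 0.17 and 0.11), HNRNPH1 by 0.29 and 0.25. With quantile normalisation 4 rose in JJN3. The list around TENT5C had 6 tested genes: TENT5A, FNDC3A, FNDC3B, and TENT2, TENT4A and TENT4B, which are outside the TENT5 family. Of these, 4 rose and 1 fell in INA6 (4 and 2 without knockdown replicate 1) and 3 rose and 1 fell in JJN3 (3 and 2 with quantile normalisation). TENT4A (0.18) and TENT4B (0.41) were among the INA6 rises. In JJN3, TENT4B (0.39) was among the rises and TENT2 (−0.23) was the fall. The paralog TENT5A rose in INA6 (0.34, adjusted p = 1.31e-05), opposite to TENT5C there, and in JJN3 (0.27, adjusted p = 0.00225), where the call was lost without control replicate 3 (adjusted p = 0.067). FNDC3A, an ER protein known to bind TENT5C, fell in INA6 (−0.61, adjusted p = 2.19e-08) and was at −0.02 in JJN3 (adjusted p = 0.717), and TENT5C and FNDC3A each differed between the lines.

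**Figure D4:**
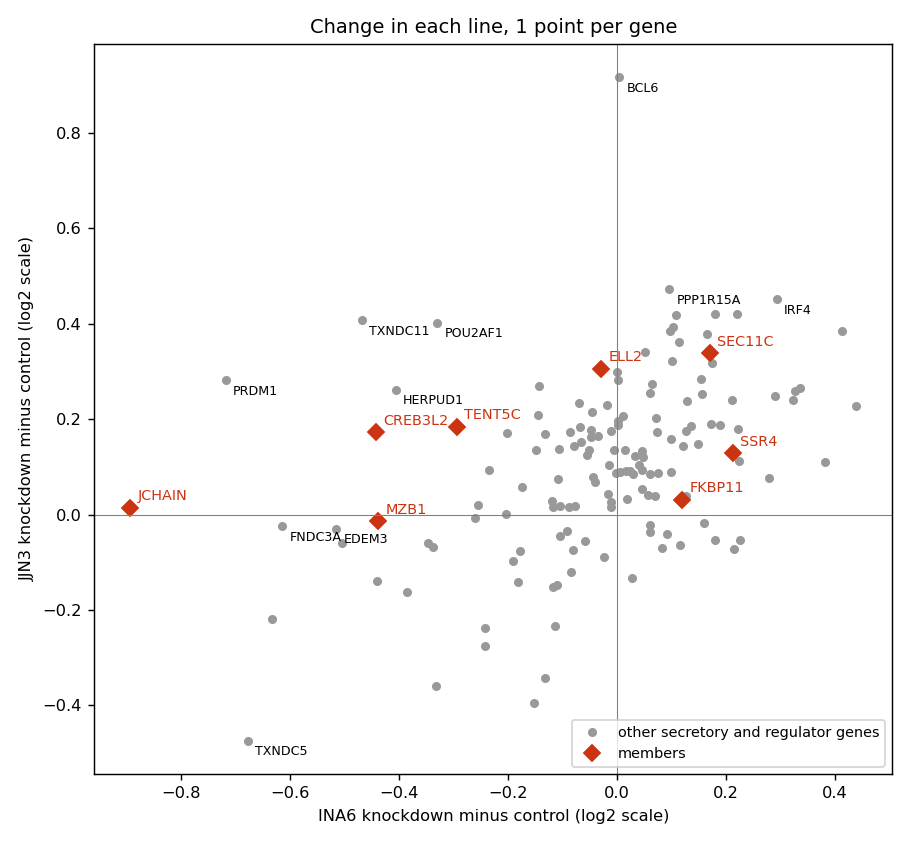
Each point is 1 gene, with its difference between KANSL2 knockdown and control in INA6 on the horizontal axis and in JJN3 on the vertical axis (both log2 scale); diamonds are the 8 genes and grey circles the other secretory and regulator genes. TENT5C and CREB3L2 lie at the upper left, lower in INA6 and higher in JJN3, as do PRDM1 and TXNDC11.

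Regulators of the plasma cell state were measured beside these genes. Their counts stand beside shares over all genes of 24.7% higher and 24% lower in INA6 and 25.5% each in JJN3. In INA6, 1 of 9 tested regulators rose and 5 fell (median −0.12), with PRDM1, the repressor that sets the plasma cell programme, at −0.72 (adjusted p = 8.2e-10) and POU2AF1, a coactivator of immunoglobulin genes, at −0.33 (adjusted p = 1.28e-06). In JJN3, 5 of 8 rose and 1 fell (median 0.33), PRDM1 by 0.28 (adjusted p = 8.76e-07) and POU2AF1 by 0.40 (adjusted p = 3.6e-10). The largest rise of the list in JJN3 was that of BCL6 (0.92, adjusted p = 5.05e-13), and BACH2 rose there as well (0.39, adjusted p = 5.78e-07). Both are known as repressors of B cells that oppose the plasma cell programme, so 2 of the 5 rises are of such genes. In INA6 BCL6 was at 0.00 (adjusted p = 0.963) and BACH2 at 0.10 (adjusted p = 0.162). Without INA6 knockdown replicate 3 the INA6 counts were 2 and 5, and without JJN3 control replicate 3 the JJN3 counts were 5 and 2. IRF4 rose in both (0.29 and 0.45). Of 8 tested plasma cell markers, a list that shares PRDM1, IRF4 and XBP1 with the regulators, 2 rose and 5 fell in INA6 and 6 rose and 1 fell in JJN3, the falling one being SDC1 (−0.50, adjusted p = 1.16e-07). Their part in the changes of the 8 genes was not tested. IGLL5 was the only one of 15 immunoglobulin genes of a fixed list to be analysed here. It rose in INA6 (0.31, adjusted p = 7.91e-05), where JCHAIN and MZB1 fell, and in JJN3 (0.15, adjusted p = 0.00187), a call that quantile normalisation ended (adjusted p = 0.15). IGLL5 closely resembles lambda constant genes, so the assignment of its reads is uncertain.

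Markers of other cell types were counted in the same fits, where 24.7% of all genes rose and 24% fell in INA6 and 25.5% each in JJN3. In INA6, 5 of 9 B cell markers were tested, of which 0 rose and 1 fell, CR2 (−0.16, adjusted p = 0.0087), with MS4A1 at 0 in all 6 libraries. None of the tested T and NK cell (3 of 9), myeloid (2 of 8) or stromal (1 of 8) markers was called in INA6. CD68, a myeloid marker, was close to the threshold there (−0.17, adjusted p = 0.0514) and was called lower under 5 of 12 alternatives, and CD14 (0.11, adjusted p = 0.0605) was called higher under 2. In JJN3, CD68 (0.11, adjusted p = 0.0964) was called higher under 3 of 12. In JJN3, 4 of 9 B cell markers were tested: MS4A1 rose (0.64, adjusted p = 1.62e-10), and CD79B (−0.60, adjusted p = 6.3e-11) and CD79A (−0.15, adjusted p = 0.00487) fell. CD3E, a T cell marker, fell there (−0.18, adjusted p = 0.0108) and the stromal marker VIM rose (0.14, adjusted p = 0.00392), both ended by quantile normalisation. The part of these markers in the changes of the 8 genes was not tested. A value of 0 does not show absence in these tables, since FKBP2, an ER isomerase gene, was also listed at 0 in all libraries.

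FKBP11 also lies near the targeted gene, the 5′ end of its annotated span 256.8 kb from that of KANSL2 on the same chromosome and strand. The upstream sequences searched for FKBP11 lie inside that span, at 48925493 to 48925742 and 48924989 to 48925238, before starts that are closer to KANSL2. Of 19 protein-coding neighbours within 500 kb, 11 were tested. In INA6, 6 of them were higher, FKBP11 included, and 3 lower (median 0.10), beside 24.7% and 24% of all tested genes. In JJN3, 4 were higher and 4 lower (median 0.03), beside 25.5% each. CCNT1, the closest tested gene at 34.5 kb and a cyclin of the elongation complex in which ELL2 works, rose in both lines (0.44, adjusted p = 3.37e-06, and 0.23, adjusted p = 0.000131). ZNF641, at −331 kb on the other side, fell in both (−0.40 and −0.49). No single direction ran across the region in either line.

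**Figure D5:**
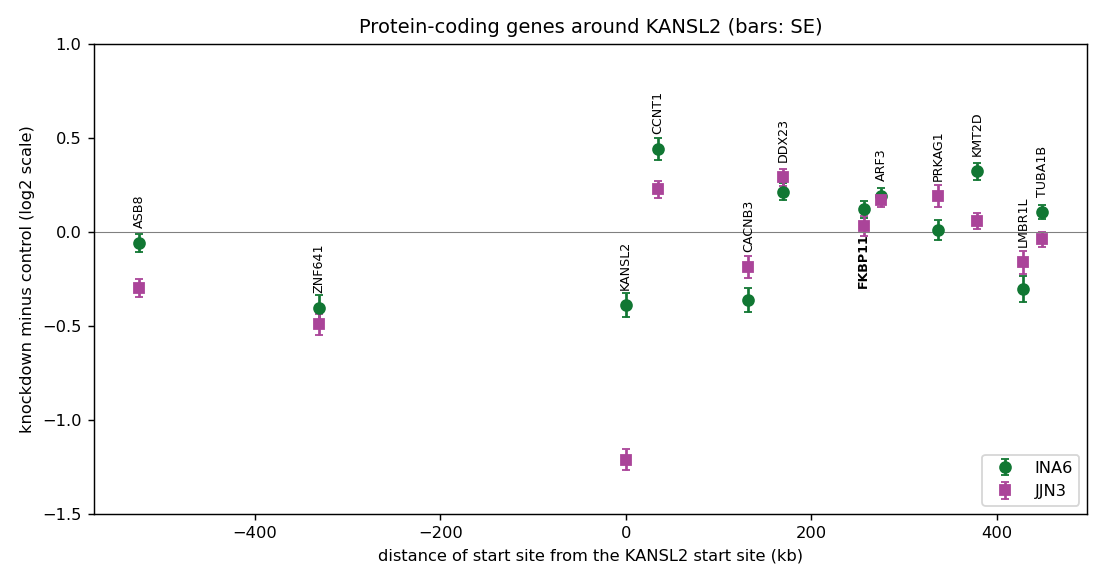
Differences between KANSL2 knockdown and control (log2 scale, bars SE) of tested protein-coding genes are plotted by the distance of their start (the 5′ end of the annotated span) from that of KANSL2, in kb, with circles for INA6 and squares for JJN3. KANSL2 lies at −0.39 in INA6 and −1.21 in JJN3, and its neighbours, FKBP11 included, lie between −0.49 and 0.44.

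The genes most like each of the 8 over the 12 RNA libraries were found by the root mean square difference of their deviations from the control means of each line, among 9416 genes. For JCHAIN these were INSIG1 (0.0791) and HEG1 (0.0815), whose differences were −0.92 and −0.90 in INA6 and 0.08 and 0.09 in JJN3. For MZB1 they were WLS (0.0522) and GRINA (0.0566), for TENT5C ITPR2 (0.051) and LY75 (0.0519), and for ELL2 USP53 (0.0418) and RNF139 (0.0474). CREB3L2 was nearest to RUNX2 (0.0402) and TOB1. SEC11C was nearest to ZNF324 (0.0390) and ICMT, SSR4 to CENPO (0.0390) and GINS4, and FKBP11 to RPLP0 (0.0286) and AHCY. None of the 8 was among the 2 nearest genes of another. With only 2 of 9416 genes kept for each, this does not show whether the 8 moved together. The nearest genes were chosen on these same deviations, so their similar differences follow from the choice.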

How the data were processed

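Poly(A) RNA of 12 libraries was analysed, grouped by title. The submitters' processing notes name DESeq2, HTSeq, Bowtie2 and Trim Galore and the build hg38, and versions, annotation and strand setting are not given in the sources used here. The authors deposited 1 table of rlog values per line, on the log2 scale, which scales by size factors and shrinks genes with few reads, so small changes of low genes are understated and a change of all RNA together would not be seen. The tables hold no counts, so depth is unknown.

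Within each line, every gene whose mean rlog value reached 3 was tested with limma 3.58.1 in R 4.3.3 (lmFit, eBayes with trend), two-sided, with Benjamini-Hochberg adjustment over all tested genes. The code was tested on simulated data. The lines were compared by the difference of differences divided by its standard error (the root of the sum of both squared errors), with the degrees of freedom added. An exact permutation test of 3 against 3 cannot go below 0.1 and was not used.

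The 8 genes and the lists were chosen with earlier results of these data known. The rule for naming genes took the 8 genes, KANSL2, up to 3 tested genes per list and line with the smallest p, paralogs and complex partners, protein-coding neighbours within 500 kb of KANSL2, and the 2 most alike genes; not all are printed. CAST, IDH3G and FKBP2 were named after their values were seen. The alternatives were no filter, a mean of at least 5, median centring, quantile normalisation, no trend, the replicate block and leaving out each library. Positions and promoter sequences are from RefSeq (GRCh38.p14), and 27661 of the symbols matched the reference tables.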

Additional observations from a re-analysis of the deposited data

Results flagged for a closer look

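For 5 of the 8 genes the difference between knockdown and control was not the same in the 2 lines by the test of the difference itself, given here as JJN3 minus INA6 on the log2 scale. JCHAIN differed by 0.91 (adjusted p = 4.82e-16, higher in JJN3), from −0.89 in INA6 to 0.01. CREB3L2 differed by 0.62 (adjusted p = 1.33e-10) and TENT5C by 0.48 (adjusted p = 3.69e-09), each falling in INA6 and rising in JJN3. MZB1 differed by 0.42 (adjusted p = 1.93e-06) and ELL2 by 0.33 (adjusted p = 4.43e-05). The p-values come from the limma standard errors of both lines, and the knockdown of KANSL2 was deeper in JJN3.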

How the results depend on the processing

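The 5 differences between lines kept their direction and their call under all 18 alternatives, and so did, under 12 alternatives each, the INA6 calls of JCHAIN (−0.99 to −0.84), MZB1 (−0.52 to −0.40), CREB3L2 (−0.51 to −0.39), TENT5C (−0.36 to −0.26) and SSR4 (0.19 to 0.25) and the JJN3 calls of SEC11C (0.29 to 0.41), ELL2 (0.22 to 0.33), TENT5C (0.12 to 0.25) and CREB3L2 (0.13 to 0.20). No result reversed. The INA6 call of FKBP11 was lost without the filter on low values (0.12, adjusted p = 0.0642), without the mean-variance trend (0.12, 0.0544), with the replicate block (0.12, 0.0903) and with quantile normalisation (0.0695, 0.23). The JJN3 call of SSR4 was lost without the filter (0.13, adjusted p = 0.0602), and JCHAIN in JJN3 was called with quantile normalisation (0.0732, adjusted p = 0.0174). Leaving out each library gave 0.10 to 0.15 for FKBP11, −0.10 to 0.0155 for ELL2 and 0.16 to 0.19 for SEC11C in INA6, and 0.0847 to 0.17 for SSR4 in JJN3. The number of the 8 genes that rose in INA6 then ranged from 1 to 3, and was 1 without control replicate 3 or knockdown replicate 2. The cause was not tested. Same-numbered libraries did not deviate together (r from −0.30 to 0.0045), while INA6 control replicate 3 and knockdown replicate 1 had r = 0.24. With 3 libraries per arm, these values cannot show whether the numbers pair the libraries. The replicate block changed no other call among the 8 genes. Over all genes the alternatives gave 2529 to 3904 rises in INA6 and 2681 to 3768 in JJN3. Depth is unknown, so no limit from counting can be given.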
